A study of Caenorhabditis elegans with 2 samples.

Results

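The srh genes are a family of serpentine chemoreceptor genes of Caenorhabditis elegans, examined here for peaks of the transcription factor subunit NFYA-1. Members were all protein-coding genes of the Ensembl annotation whose symbol is srh- followed by a number, which gave 220 of 19985 genes. By chromosome, 180 members lie on V, 27 on II, 7 on IV, 3 on I, 2 on X and 1 on III. They are short genes, from 577 to 6860 bp with a median of 1557.5 bp. Chromatin immunoprecipitation sequencing (ChIP-seq) had been done on whole young adult hermaphrodites of strain OP404, genotype unc-119(tm4063) III; wgIs404, in 1 group of 2 biological replicates. The integrated transgene wgIs404 makes NFYA-1 with a green fluorescent protein and FLAG tag at its C-terminal end, and the protein was precipitated through the fluorescent tag. Both replicates are of the same transgenic line, which has this tagged copy in addition to the gene's own locus, and there is no untagged or untreated group. The deposited lists for replicate 1, replicate 2 and both pooled held 30000 peaks each, weak background peaks included, and a final list thresholded by the authors held 97. Of these 97, 26 were on mitochondrial DNA. Read depth is unknown, and all cells of the animal were mixed, so a peak in few cells cannot be told apart from a weak peak in many.

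Serpentine chemoreceptors are receptors with membrane-spanning helices that worms use to sense odours, tastes and pheromones. The srh family belongs to the Str superfamily, has many neighbouring copies on the arms of chromosome V, and its members with a known site of expression are mostly found in single sensory neurons. NF-Y is a complex of the subunits NFYA, NFYB and NFYC that is known for binding the sequence CCAAT, mainly near gene starts, and in worms it is known as a regulator of the Hox gene egl-5 and the T-box gene tbx-2.

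The windows of 50 bases to each side of the srh summits that the results turn on are shown here, a summit being the position of the highest signal in a peak. All are from the RefSeq genome of WBcel235, which is build ce11, on the plus strand, and capitals mark CCAAT or its reverse complement ATTGG unless stated. The window of srh-142, chrV:16460209-16460309, is the srh window with the strongest pooled peak, and its capitals mark the word AGGTA. Those of srh-217, chrV:20195645-20195745, and srh-146, chrV:2913733-2913833, hold the highest-ranked srh summits upstream of a gene. For srh-146 the window at the summit of replicate 1, chrV:2913695-2913795, is added because it differs in holding a CCAAT. The windows at its pooled summit and at its replicate 2 summit, chrV:2913825-2913925, hold none. Those of srh-290, chrV:17792284-17792384, srh-48, chrII:9382961-9383061, and srh-102, chrV:17163586-17163686, hold a CCAAT near a summit, in genes whose best pooled rank is within 10000. For srh-220, chrIV:3976823-3976923 and chrIV:3977118-3977218 are the windows at the summits of the peaks of replicates 1 and 2, which overlap by 5 bp. The window of srh-178, chrV:18479479-18479579, has the word CTTGG in capitals.
srh-142, pooled summit: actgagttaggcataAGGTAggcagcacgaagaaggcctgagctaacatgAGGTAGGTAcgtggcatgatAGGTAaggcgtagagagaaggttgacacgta
srh-217, pooled summit: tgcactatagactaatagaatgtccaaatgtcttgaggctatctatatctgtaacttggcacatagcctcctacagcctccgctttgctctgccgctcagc
srh-146, pooled summit: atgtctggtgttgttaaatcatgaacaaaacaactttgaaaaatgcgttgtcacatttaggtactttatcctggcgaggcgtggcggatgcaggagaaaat
srh-146, summit of replicate 1: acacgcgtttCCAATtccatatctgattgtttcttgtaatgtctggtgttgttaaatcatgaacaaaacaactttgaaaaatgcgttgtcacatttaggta
srh-290, pooled summit: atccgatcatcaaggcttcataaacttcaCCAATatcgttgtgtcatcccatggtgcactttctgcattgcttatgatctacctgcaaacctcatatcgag
srh-48, pooled summit: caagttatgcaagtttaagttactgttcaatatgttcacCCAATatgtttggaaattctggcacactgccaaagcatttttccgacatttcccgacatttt
srh-102, pooled summit: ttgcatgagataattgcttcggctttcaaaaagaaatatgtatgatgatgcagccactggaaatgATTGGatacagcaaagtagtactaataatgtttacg
srh-220, summit of replicate 1: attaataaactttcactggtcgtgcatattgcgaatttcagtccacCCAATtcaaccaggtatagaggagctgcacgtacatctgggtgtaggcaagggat
srh-220, summit of replicate 2: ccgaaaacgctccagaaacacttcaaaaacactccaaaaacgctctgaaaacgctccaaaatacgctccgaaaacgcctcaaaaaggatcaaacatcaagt
srh-178, pooled summit: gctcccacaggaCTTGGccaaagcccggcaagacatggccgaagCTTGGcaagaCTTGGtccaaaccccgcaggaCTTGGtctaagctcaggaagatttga

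Most srh genes held a peak in these long lists, at a share like that of the other chemoreceptor genes. A gene was counted where a summit lay within it or near a transcript start, at most 1000 bp before or 200 bp after. This stretch is called its region below. In the pooled list this held for 154 of 220 srh genes, 70.0% (exact 95% interval 63.5 to 76.0), while 58.7% of all protein-coding genes did. In replicate 1 it held for 151 srh genes, 68.6% (62.1 to 74.7), with 60.3% of all genes, and in replicate 2 for 162, 73.6% (67.3 to 79.3), with 59.3%. The srh share was thus above that of all genes in each list. Gene length and place on the chromosome also differ between these sets, so the srh genes were set beside 2058 other genes of chromosome V between 1185 and 2444 bp long, the 10th to 90th percentile of srh lengths. The srh genes themselves were not cut by length. Median lengths were 1557.5 bp in srh genes and 1682 bp in the comparison genes.

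In these like-length genes the share was 64.3% pooled, 64.6% in replicate 1 and 66.3% in replicate 2. The srh genes were higher by 5.67 percentage points pooled (Newcombe 95% interval -1.01 to 11.7), by 4.06 in replicate 1 (-2.66 to 10.2) and by 7.36 in replicate 2 (0.848 to 13.1). The direction was the same in both samples, but only the interval of replicate 2 left out 0. For the 180 srh genes of chromosome V alone the difference was 7.89 points pooled (0.639 to 14.3), 5.42 in replicate 1 (-1.92 to 12.0) and 9.28 in replicate 2 (2.22 to 15.3), so here the pooled interval left out 0 as well. Of the like-length genes, 572 belong to other chemoreceptor families, and their shares were 69.9% pooled, 71.3% in replicate 1 and 70.6% in replicate 2. Against them the pooled difference was 0.0699 points (-7.24 to 6.94), with replicate 1 lower by 2.69 points (difference interval -10.0 to 4.24) and replicate 2 higher by 3.01 (-4.15 to 9.63). The direction differed between the samples, so no difference from other chemoreceptors was resolved. Against the 1486 like-length genes that are no chemoreceptors, the srh share was higher by 7.82 points pooled (1.01 to 14.0), 6.66 in replicate 1 (-0.195 to 12.9) and 9.03 in replicate 2 (2.40 to 15). Limited to such genes within 200 kb of a srh gene, the differences were 6.4 (-0.597 to 12.8), 3.44 (-3.59 to 9.94) and 7.74 points (0.911 to 13.9). Intervals here and below cover the counting of genes only. Neighbouring genes and copies are not independent, and 2 samples of 1 group allow no test across samples.

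Strong peaks were not more common in srh genes than in the like-length genes. Signal values, the authors' measure of the strength of a peak, have no stated scale and serve here only to rank peaks within a list, rank 1 being the highest. Among the 10000 highest pooled peaks, 45 srh genes had a summit, 20.5% (15.3 to 26.4), beside 31.4% of all protein-coding genes and 27.4% of the like-length genes. In the like-length chemoreceptors of other families the share was 27.6% (24.0 to 31.5). In replicates 1 and 2 it was 29.0% and 28.0% in those families and 25.9% and 26.4% in srh genes. The difference from the like-length genes was -6.90 points (-12.1 to -0.789), the opposite direction to that in the whole pooled list. For the 10000 highest peaks of replicate 1 it was -3.34 points (-9.05 to 3.12) and for those of replicate 2 it was -1.62 (-7.36 to 4.85). For the 180 srh genes of chromosome V alone it was -3.47 pooled (-9.44 to 3.52), -3.14 in replicate 1 and 2.57 in replicate 2. With the members limited to chromosome V, the interval of the pooled difference thus included 0.

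Among the 1000 highest peaks, srh genes numbered 4 in the pooled list, 2 in replicate 1 and 4 in replicate 2, or 1.82%, 0.909% and 1.82%, with 4.63%, 4.61% and 4.57% of all protein-coding genes and 2.57%, 3.06% and 1.99% of the like-length genes. The pooled 4 were srh-142, srh-217, srh-10 and srh-146. The median best rank of srh genes with a summit was 15040.5 pooled, 13646 in replicate 1 and 14451.5 in replicate 2. In the like-length genes it was 11900, 11171 and 11760, so the typical srh peak stood lower in each list. The like-length chemoreceptors of other families lay between at 12486.5 pooled and at 12046 in replicate 2, and near the srh genes at 13563 in replicate 1. The median best signal of srh genes was 17.4 pooled (range 13.6 to 39.5), 7.76 in replicate 1 (5.52 to 16.9) and 11.8 in replicate 2 (8.97 to 32.4). The median over all peaks of a list was 17.5 pooled, 7.51 in replicate 1 and 11.7 in replicate 2, so the best peak of a typical srh gene was close to the middle of its list.

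**Figure D1:**
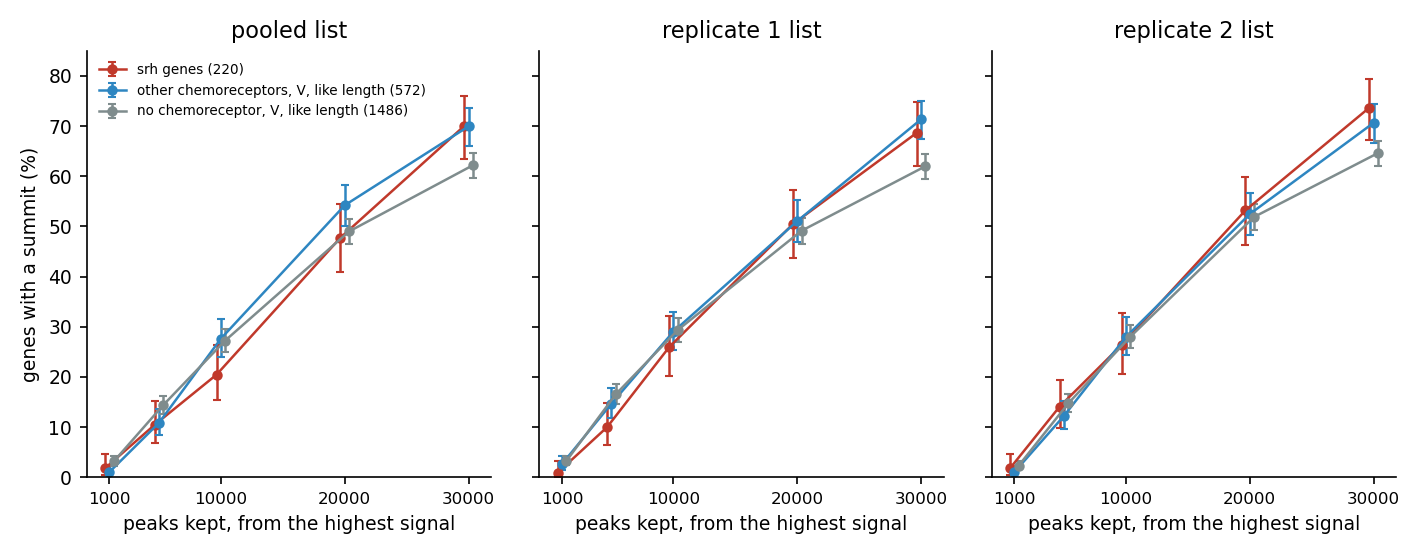
Share of genes with a summit (y axis, percent) against the number of highest-signal peaks kept (x axis), for the 220 srh genes (red), 572 other chemoreceptor genes of like length (blue) and 1486 like-length genes of no chemoreceptor family (grey) of chromosome V; bars are exact 95% intervals over genes. In the pooled list the srh share rises from 20.5% with 10000 peaks to 70.0% with 30000.

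Overlapping peaks of both replicates were found in fewer than 4 of 10 srh genes. Peaks of replicates 1 and 2 that overlapped by 1 bp or more, each with its summit in the region, were found in 83 srh genes, 37.7% (31.3 to 44.5), while 38.8% of all protein-coding genes had such peaks. The like-length genes had 38.6%, a difference of -0.902 points (-7.40 to 5.98), so the srh share was near the background. Across the 83 genes the overlap was 5 bp or more, with a median of 228 bp, and the summits were a median of 72 bp apart. A summit of each replicate, overlapping or not, was found in 123 srh genes, 55.9%, beside 49.8% of all protein-coding genes and 52.8% of the like-length genes. Among genes with a summit of each, the peaks overlapped in 83 of 123 srh genes. This held for 795 of 1086 like-length genes and 7755 of 9956 protein-coding genes. That part was smallest in srh genes, but no interval of it was computed. Only replicate 1 had a summit in 28 srh genes, 12.7% beside 10.5% of all genes, and only replicate 2 in 39, 17.7% beside 9.46%. These shares were 11.8% and 13.5% in the like-length genes, and 15.4% and 14.7% in the like-length chemoreceptors of other families. Neither replicate had one in 30, 13.6% beside 30.3% of all genes and 21.9% of the like-length genes. In the like-length chemoreceptors of other families this share was 14.0%, close to that of srh genes. Of the 154 best pooled peaks, 92 were overlapped by a replicate 1 peak, 126 by a replicate 2 peak, 74 by both and 10 by neither. These overlaps were counted for srh genes only, so the larger number in replicate 2 cannot be called particular to them. Overlapping peaks were within the 10000 highest of both replicates in 12 srh genes, 5.45%, beside 11.3% of all protein-coding genes and 7.92% of the like-length genes. Across the 83 genes the signal values of the overlapping peaks had a Spearman rho of 0.091, beside 0.192 over 795 like-length genes and 0.274 over 7755 genes of all kinds. These correlations are descriptions within a pair of samples that, per the deposited file notes, share a control.

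**Figure D2:**
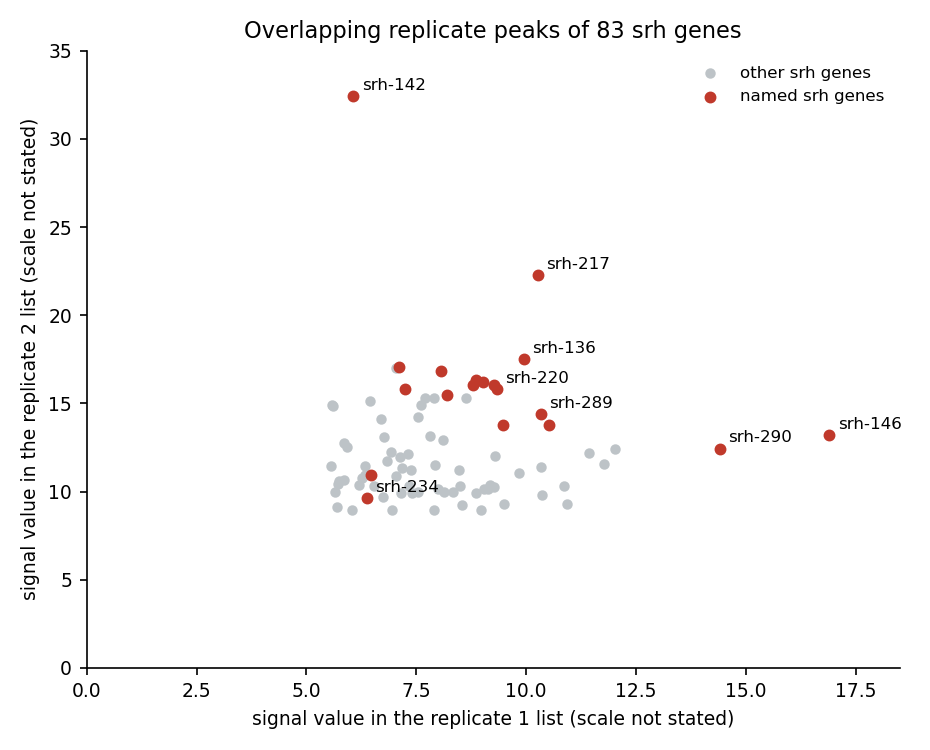
Signal value in replicate 1 (x axis) and replicate 2 (y axis), both on the deposited scale, of the overlapping peaks of 83 srh genes; red points are srh genes picked by rank, number of summits, closeness of a CCAAT or a known reporter. srh-142 is highest in replicate 2 at 32.4 with 6.07 in replicate 1, while srh-146 is highest in replicate 1 at 16.9 with 13.2 in replicate 2.

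Only srh-142 had a peak in the final list, 0.455% of the srh genes (exact interval 0.0115 to 2.51) beside 0.45% of all protein-coding genes. Genes of mitochondrial DNA were not left out of that background. In the like-length genes, all of chromosome V, the share was 0.243%. A green fluorescent reporter of srh-142 is known from the sensory neuron pair ADF. The gene is at V 16459336 to 16460966 on the minus strand, and the peak covers 16460114 to 16460403 with its summit in an intron, 707 bp downstream of the start. Its signal was 39.5 pooled, 6.07 in replicate 1 and 32.4 in replicate 2. The corresponding ranks were 73, 25209 and 35, so the place in the final list goes with a high value in replicate 2 and a low value in replicate 1. Replicate 1 had a further summit in the gene region, at rank 16487. No CCAAT lay within 250 bp of the pooled summit, and the window held 49.5% G and C.

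The other known reporter genes stood far down the pooled list. srh-220, whose promoter is widely used to mark the nociceptive and pheromone-sensing neuron pair ADL, is at IV 3976429 to 3978015 on the minus strand. Its best pooled summit, at -486 bp from the start, had a signal of 16.4 and rank 18200 and was overlapped by no peak of either replicate. Within the gene, replicate 1 had a peak with a signal of 9.33 at rank 7091 and replicate 2 one with a signal of 15.8 at rank 4192. These overlap by only 5 bp and their summits are 295 bp apart, the widest gap among the 83 genes, so they may not be the same site. The other pooled summit, at rank 20437 with a signal of 15.9, is at the summit of replicate 2. The place of srh-220 among the 10 srh genes with the best rank held by both replicates rests on that overlap. srh-234, which is known for ADL expression that changes with feeding state, is at V 7650242 to 7651857 on the minus strand. Its pooled summits ranked 23695 and 26847, and its overlapping replicate peaks had signals of 6.37 and 9.64 at ranks 22799 and 25292. These are weak peaks in every list. The summit at rank 23695 also lies in the region of srh-200, another member.

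The remaining strong members are chemoreceptor genes of which no ligand or neuron is named here. srh-217, at V 20193089 to 20195551 on the minus strand, had 5 pooled summits, the most of any srh gene. Its best summit was at -144 bp from the start, with a signal of 33.0 pooled, 10.3 in replicate 1 and 22.3 in replicate 2. The ranks were 346, 4670 and 432, the best pair of replicate ranks among the 83 srh genes with overlapping peaks. The other 4 summits ranked between 9994 and 27446 pooled and were overlapped by peaks of replicate 2 but not of replicate 1. srh-146, at V 2914248 to 2916172 on the plus strand, had its best summit at -465 bp, with signals of 29.7 pooled, 16.9 in replicate 1 and 13.2 in replicate 2. Here replicate 1 was high, at rank 167, and replicate 2 lower, at 9438, the reverse of srh-142. srh-136, at V 16495957 to 16497596 on the minus strand, had a summit at -960 bp with signals of 27.5 pooled, 9.95 in replicate 1 and 17.5 in replicate 2. At ranks 1539, 5338 and 2287 it stood high in all 3 lists.

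Summits within genes were as prominent. That of srh-10, V 6065507 to 6067140, was in a coding exon 1570 bp from the start, with signals of 30.1 pooled, 11.4 in replicate 1 and 21.3 in replicate 2. The ranks were 761, 2851 and 599, but the summit of the replicate 1 peak lay outside the region, so srh-10 is not among the 83 genes. In srh-290, V 17790491 to 17792470, a coding exon summit 1843 bp from the start had signals of 28.5 pooled, 14.4 in replicate 1 and 12.4 in replicate 2, at ranks 1164, 623 and 11952. Its neighbour srh-289, V 17792679 to 17794086, had 3 pooled summits, the best in a coding exon 90 bp from the start with signals of 26.2 pooled, 10.3 in replicate 1 and 14.4 in replicate 2. These neighbours lie on opposite strands and stood at ranks 1164 and 2077 of the pooled list. The next in pooled rank were srh-8 at 2522, srh-178 at 2671 and srh-31 at 2912, with signals of 25.5, 25.3 and 24.9. In replicate 1 those peaks had signals of 8.19, 8.86 and 7.11 and in replicate 2 of 15.5, 16.3 and 17.1, and srh-8 and srh-178 had intron summits.

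Genes ranked by the worse of their replicate ranks gave a partly different set. Besides srh-217, srh-136, srh-289, srh-178 and srh-220, it held srh-295, srh-4, srh-257, srh-35 and srh-92. For srh-295 the signals were 24.6 pooled, 9.28 in replicate 1 and 16 in replicate 2, at -918 bp from the start. For srh-257 they were 22.1, 9.03 and 16.2 in an intron, and for srh-35 they were 20.9, 8.79 and 16 in a coding exon. These peaks held similar levels within each replicate. For srh-92 they were 18.9, 10.5 and 13.8 in a coding exon, at pooled rank 11427 but at 4120 and 8029 in the replicates. For srh-4 the peak found by both replicates had signals of 21.8, 9.48 and 13.7, and its best pooled summit at rank 3590 is also the best of its neighbour srh-7. A summit in 2 regions counts for both genes, which held for 14 of the 238 distinct summits, and 47 lay also in the region of a gene that is not srh.

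By number of pooled summits, 66 srh genes had 0, 80 had 1, 54 had 2, 17 had 3, 2 had 4 and 1 had 5. Those with 4 were srh-21 and srh-80, and these were many weak peaks rather than a strong one. The summits of srh-21 ranked from 14347 to 23203, each overlapped by a replicate 2 peak and none by a replicate 1 peak. Those of srh-80 ranked from 14857 to 25978, of which replicate 2 peaks overlapped 2 and a replicate 1 peak overlapped 1. Per kb of region, srh genes had 0.414 summits pooled, 0.367 in replicate 1 and 0.449 in replicate 2. The like-length genes had 0.394, 0.384 and 0.399, so summits were denser in srh genes in replicate 2 and sparser in replicate 1.

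Many srh genes stand beside each other, and peaks were spread along such runs. The longest run of neighbouring srh genes each with a pooled summit was 7 genes at V 17810353 to 17844206, from srh-296 through srh-298, srh-300, srh-301, srh-304 and srh-303 to srh-286. Their best pooled ranks ran from 4197 to 23849 and signals from 14.9 to 23.4, and 6 of the 7 had overlapping peaks in both replicates. Such peaks were found in 37.7% of all srh genes and 38.8% of all protein-coding genes. These shares also count genes without a pooled summit, while the run was picked for having one in each gene. The pooled list comes from the same 2 replicates, so the run cannot be called special by this. Runs of 4 with a summit in each gene varied. They had overlapping replicate peaks in 1 gene at V 4921102 to 4928257, 3 at V 18471985 to 18480331 and 1 at V 19959044 to 19978320. With srh-291, which had no pooled summit, and srh-292, the 7 genes make the longest run of srh genes, 9 in all. The run of srh-8, srh-7 and srh-4, V 4005519 to 4011966, had the narrowest ranks of the runs with a summit in each gene, 2522 to 3590. However, srh-7 and srh-4 have the same best summit, at rank 3590, so the narrow range counts 1 peak for both. All 3 genes had overlapping replicate peaks. On chromosome II, 6 neighbours at 12507338 to 12518859 included 4 with a summit, ranked 10973 to 19562. By contrast srh-109, srh-252 and srh-112, V 17219253 to 17226219, had 0 pooled summits. Replicate 2 had a summit in the region of srh-109 at rank 16167, and replicate 1 one in that of srh-252 at rank 28746.

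A smaller share of the srh genes outside chromosome V had a peak, within wide intervals. On V, 130 of 180 had a pooled summit, 72.2% (65.1 to 78.6), and 73 had overlapping replicate peaks, 40.6% (33.3 to 48.1). Elsewhere 24 of 40 had a summit, 60.0% (43.3 to 75.1), and 10 had overlapping peaks, 25% (12.7 to 41.2). The median best ranks were 14797 on V and 19278 elsewhere in the pooled list, 13264 and 13646 in replicate 1, and 13018 and 18465 in replicate 2. Genes of all kinds went the same way in the pooled list, with 62.8% of 4994 on V and 57.4% of 14991 elsewhere. The srh intervals overlap, and the gap in rank was large in replicate 2 and small in replicate 1. Along chromosome V, cut into 3 equal lengths, the pooled share of srh genes was 72.2% (39 genes with a summit) on the left, 72.0% (18) in the middle and 72.3% (73) on the right. In the like-length genes it was 65.5%, 57.3% and 71.9%, so the srh share was even along the chromosome and that of the like-length genes was lowest in the middle. The share with overlapping replicate peaks was 29.6%, 36.0% and 47.5% in srh genes and 37.8%, 35.2% and 43.9% in like-length genes.

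Coding exons held a larger share of the srh summits than of the srh sequence. Of 252 pairs of a srh gene and a pooled summit, 123 were in a coding exon, 48.8% (42.5 to 55.2), while coding exons make up 36.4% of the srh regions. The coding share was 45.7% in replicate 1 and 46.5% in replicate 2. Introns held 16.7% pooled, 19.7% in replicate 1 and 18.7% in replicate 2, with 24.2% of the region, and sequence upstream of the gene held 31.7%, 30.0% and 31.5% with 36.2%. The like-length genes had much the same division, with 50.1%, 49.9% and 50.4% of their summits in coding exons. By distance, the density of srh summits was 0.364 per kb pooled in the 500 bp before the start and 0.491 in the first 500 bp after it. In replicate 1 these were 0.336 and 0.5 and in replicate 2 they were 0.382 and 0.491. In the like-length genes they were 0.294 and 0.436 pooled, 0.286 and 0.410 in replicate 1, and 0.285 and 0.437 in replicate 2. In both sets and every list the density was thus lower just before the start than just after it. In these 500 bp bins it was higher in srh genes than in like-length genes. The direction varied between lists in the next 500 bp on each side. Upstream the srh and like-length densities were 0.364 and 0.366 pooled, 0.273 and 0.341 in replicate 1, and 0.4 and 0.370 in replicate 2. Downstream they were 0.411 and 0.433, 0.384 and 0.447, and 0.503 and 0.443 in the same order. No intervals of these densities were computed.

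**Figure D3:**
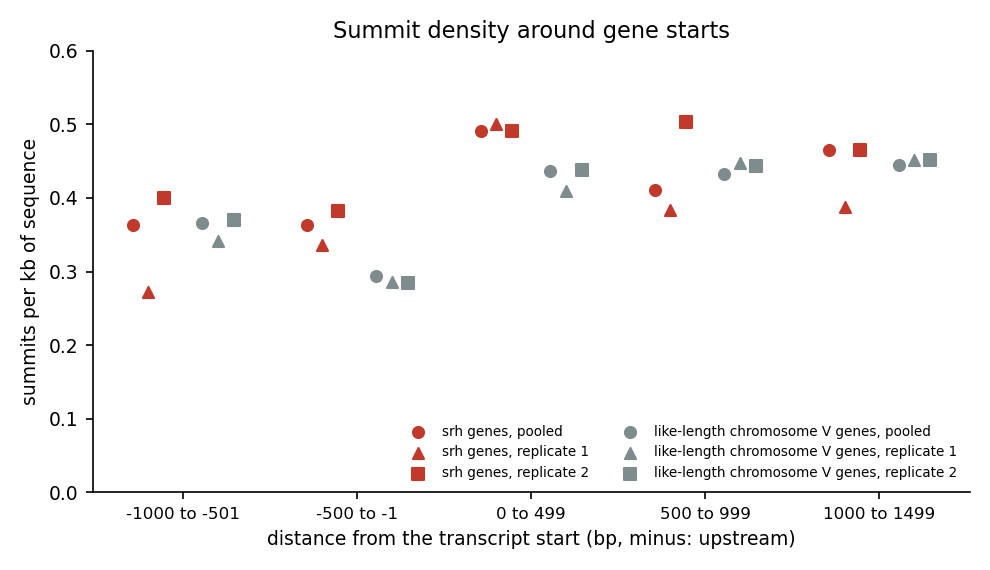
Summits per kb (y axis) in bins of 500 bp by distance from the transcript start (x axis, minus is upstream) for srh genes (red) and like-length chromosome V genes (grey), one mark for each list, with no error bars. The srh densities before the start, 0.273 to 0.4 per kb, are below those of the first 500 bp after it, 0.491 to 0.5.

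CCAAT was as frequent around srh summits as around summits in general. Matches on either strand were counted up to 50 bp away. There was one at 49 of 238 distinct pooled srh summits, 20.6% (15.6 to 26.3), at 24.2% of 215 in replicate 1 and at 21.9% of 260 in replicate 2. The shares were 22.0%, 23.0% and 22.9% at summits of the like-length genes, and 21.7%, 22.1% and 21.5% at all nuclear summits. Windows of the same length laid end to end over the srh regions held CCAAT in 21.6%, and those over like-length regions in 21.7%. The median share of G and C at pooled summits was 37.6% in srh genes, 38.6% in like-length genes and 39.6% at all summits. A match of these letters is no measure of binding, and CCAAT occurred at srh summits about as often as in the surrounding srh sequence.

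In single members a CCAAT was close to a summit, and the 5 described here were named among genes whose best pooled summit is within the 10000 highest peaks. In srh-48, a gene of chromosome II at 9380096 to 9384994, it lay 9 bp from the lowest of 3 pooled summits, at rank 19838. The best summit of srh-48, at rank 3446 in an untranslated exon, had none within 250 bp. In srh-17 it lay 13 bp from a summit of rank 25731 and in srh-277 it lay 17 bp from one of rank 23130, so these were weak peaks. Stronger was srh-290, with CCAAT 19 bp from its best summit at rank 1164, as printed above. In srh-102 the reverse complement lay 17 bp from the best summit, at rank 9347, with signals of 19.8 pooled, 7.82 in replicate 1 and 10.1 in replicate 2. Of the srh genes with the 10 lowest best ranks, srh-142, srh-136 and srh-178 had no CCAAT within 250 bp of any pooled summit. These were examples named for the closeness of a CCAAT, so their distances are a description.

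Repeated words were noticed after the sequences were seen. The srh-142 window holds AGGTA 4 times, some overlapping, and as many on a strand occurred in 40 of 29974 pooled windows, 0.133%, while 11.5% held the word at all on either strand. The srh-178 window holds CTTGG 4 times, as many in 6 windows, 0.02%, and 14.2% held it at all. Some word of 5 bases occurred at least 4 times in 16.7% of all pooled windows, so windows with a repeated word are common, and 2 of the 23 windows of named srh genes had one. CTTGG resembles ATTGG, the reverse complement of CCAAT, but no match counts for both words.

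Near-identical copies were examined because reads that match several places cannot be assigned to one of them. How the authors' processing treated such reads was not tested. The symbols srh-57 and srh-228 are each carried by a pair of inverted genes with 100% identity, of 1439 bp and 1710 bp. All 4 genes had 0 summits in the 3 lists, and 0% of their words of 31 bases occur once in the genome. In all srh genes the median share of such unique words was 99.3%. Fewer than 50% were unique in 7 srh genes, of which 2 had a pooled summit, srh-171 with 18.6% and srh-257 with 48.4%. This held for 66 of the 2058 like-length genes, of which 6 had a pooled summit. Of the other 213 srh genes, 152 had a pooled summit, 71.4%, beside 66.2% of 1992 like-length genes with as much unique sequence. The srh share was thus also the higher one without the least unique genes, but no interval of this difference was computed. A match elsewhere, by BLAST at 90% identity over 80 bp, was found for the windows of 15 of 238 pooled srh summits, 6.30% (3.57 to 10.2), and for 3.46% in like-length genes. Among named members this held for the best summits of srh-289, matching at srh-291, and of srh-48, so their peaks may hold reads of another place.

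Other serpentine families were peaked at like shares in the whole pooled list. Of the Str superfamily apart from srh, 254 of 367 genes had a pooled summit, 69.2% (64.2 to 73.9), and 38.1% had overlapping replicate peaks. The str family, to which the AWC neuron reporter gene str-2 belongs, had 66.3% of 193 genes, srd 68.7% of 67, sri 70.5% of 61 and srj 79.5% of 39. The srh share of 70.0% stands inside the interval of each of these. In the Sra superfamily the share was 73.4% of 124 genes, in the Srg superfamily 71.2% of 309 and 65.7% in the remaining families. The lowest among families of 10 genes or more was srbc with 60.6% of 71, and the highest was srb with 91.7% of 12. All 1089 genes of the other families together had 69.3% (66.5 to 72.1) and 0 in the final list, and 38.5% had overlapping replicate peaks. The median best pooled rank of srh genes, 15040.5, was on the weak side of these families, with srx at 15330, srsx at 18097 and srb at 21242 weaker still.

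**Figure D4:**
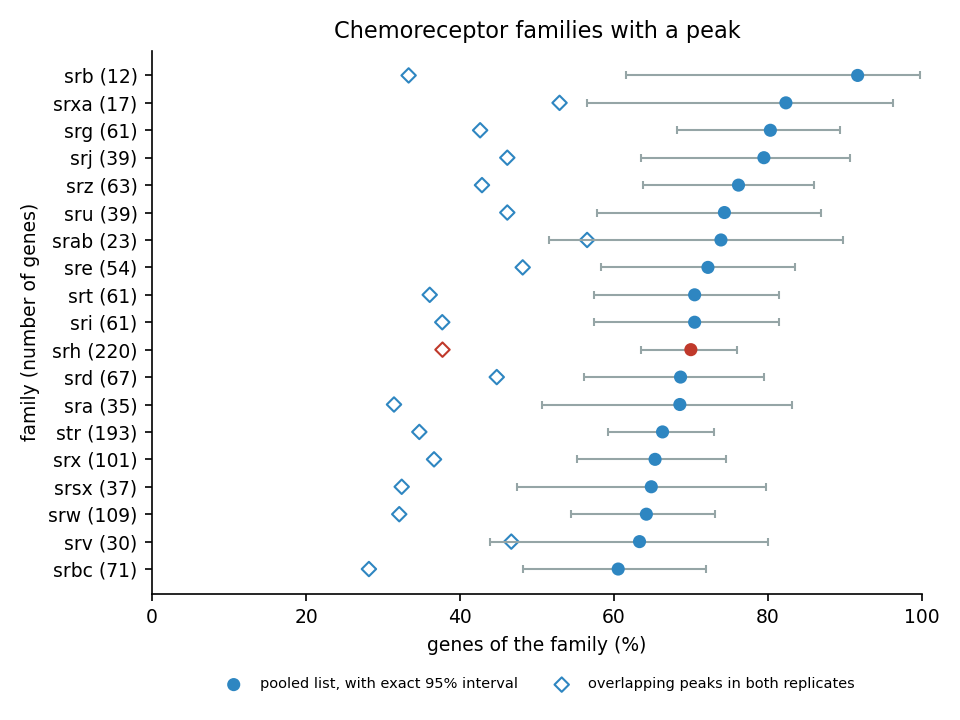
Share of genes (x axis, percent) with a pooled summit (filled circles, bars are exact 95% intervals over genes) and with overlapping peaks of both replicates (open diamonds) for the serpentine chemoreceptor families with 10 genes or more (y axis, number of genes in brackets). The srh family (red) has 70.0% and 37.7%, within the spread of the other families.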

How the data were processed

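The ChIP-seq peak lists on build ce11 were used as the authors deposited them: pooled, replicate 1, replicate 2 and a final list thresholded by irreproducible discovery rate. Column 7 holds the signal value of each peak as deposited by the authors. Signal was compared only within a list. The sources used here state neither its scale nor the aligner or peak caller. Lists on ce10 were not used here. Grouping and replicate numbers are per the labels. Genes came from Ensembl release 115 on WBcel235, and sequence from the RefSeq genome of that assembly, whose chromosome lengths match. Each summit was assigned to all genes whose region held it. The self-test of this step on simulated summits returned the planted counts. Shares have exact Clopper-Pearson 95% intervals, differences Newcombe intervals, and intervals cover the counting of genes or summits only. Read depth is unknown.

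Members, lists and the rule for named genes were chosen with earlier results of these data known. The rule named the 10 best pooled ranks, the 10 best by the worse replicate rank, the 3 genes with the most summits, the 5 with a CCAAT closest to any of their pooled summits among genes whose best rank is within 10000, and srh-142, srh-220 and srh-234. Genes srh-57, srh-228, srh-171, srh-291 and those in runs or compared by copies were added after their values were seen. Copies were sought with BLAST 2.17.0. Scripts ran in Python 3.11.15 with biopython 1.88, scipy 1.17.1, pandas 2.3.3, numpy 2.4.6 and matplotlib 3.10.9.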

Additional observations from a re-analysis of the deposited data

How the results depend on the processing

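No paired analysis was possible because there is 1 group. The share of srh genes with a pooled peak was 70.0%. It was 60.0% in gene bodies only, 41.4% in start windows only, 65.0% with 500 bp upstream, 20.5% with the 10000 highest peaks, 0.455% with the final list and 65.6% without the 28 srh genes whose region holds a summit inside another gene. In the like-length genes, where the share was 64.3%, the first 5 of these settings gave 54.1%, 37.8%, 59.9%, 27.4% and 0.243%. It was 66.1% by any overlap of the peak, 65.6% for lengths from the 25th to the 75th percentile, 65.9% within 200 kb of a srh gene and 62.2% without chemoreceptors. The difference of 5.67 points turned to -6.90 with the 10000 highest peaks, and the cause was not tested. It was 0.212 with the final list. Without the 28 srh genes it was 1.29, a fall that follows from the setting, since each of these has a peak and the like-length genes were not filtered. Leaving out a replicate gave 68.6% to 73.6% for srh genes, 64.6% to 66.3% for like-length genes and 4.06 to 7.36 for their difference.

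The share of srh genes with overlapping replicate peaks, 37.7%, was 5.45% with the 10000 highest peaks of each list, 27.3% where at least 50% of each peak had to overlap and 55.9% with no overlap asked for. In the like-length genes the values were 7.92%, 31.3% and 52.8%. The median best rank of srh genes was 16967 in gene bodies, 17795 in start windows, 4948 with the 10000 highest peaks, 73 with the final list and 16630.5 without those 28 genes. In like-length genes it was 12639.5, 14271, 5128 and 41, and 12487 with 500 bp upstream. Leaving out a replicate gave 13646 to 14451.5 for srh and 11171 to 11760 for like-length genes. An alternative chosen after seeing the data left out peaks in the regions of 2 or more genes. Applied to both sets, it gave shares of 59.5% and 53.2%, a difference of 6.39 points, and median ranks of 15742 and 12662.5, srh first. CCAAT at srh summits was 9.66% within 25 bp, 40.3% within 100 bp and 21.9% to 24.2% when a replicate was left out. The direction of the difference of the 2 shares held in the other settings run. The order of the median ranks turned round with the 10000 highest peaks, at 4948 for srh genes and 5128 for like-length genes. With unknown depth, a gene without a peak cannot be read as unbound.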

Other observations

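In srh-266, srh-255 and srh-174 the replicates had overlapping peaks while the pooled list had no summit in the region. Their ranks in replicates 1 and 2 were 10175 and 21255, 28392 and 28518, and 12471 and 22178. In srh-179, a neighbour of srh-178, replicate 2 had a summit at rank 542, while the peak that both replicates shared ranked 3480 in replicate 1 and 26895 in replicate 2. These genes were chosen after their values were seen.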
